A study of Homo sapiens with 12 samples.

Results

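Oxidative phosphorylation genes were followed across 12 RNA-seq libraries of HT-29 cells, a human colon adenocarcinoma cell line in which APC is mutant. The members were chosen by symbol alone, as the named subunits of respiratory complexes I to IV and of ATP synthase (complex V). They are 76 of the 25528 rows of the expression table, all encoded in the nucleus: 36 of complex I, 4 of complex II, 8 of complex III, 11 of complex IV and 17 of complex V. NDUFA4 bears a complex I name and is counted here in complex IV, where its product is now placed. No row of the table matched the mitochondrial names that the rule also asked for, so the subunits encoded in mitochondrial DNA are not analysed here. All cells had been infected with lentivirus. In the CTNNB1 arm the virus carried an open reading frame for GFP (the control) or for CTNNB1, which encodes beta-catenin, and RNA was taken at day 2 of infection. In the shAPC arm it carried the control hairpin shNT1 or a hairpin against APC, and RNA was taken at day 1 of doxycycline induction (2 µM). With 3 libraries in each of 4 groups, the arms differ in vector, inducer and time as well as in the gene perturbed, and the study used 1 cell line. The series title names WNT hyperactivation as the question, since APC belongs to the complex that marks beta-catenin for destruction.

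Oxidative phosphorylation is the chain of reactions in the inner mitochondrial membrane that makes ATP. Complexes I and II pass electrons from NADH and succinate to ubiquinone, complex III passes them to cytochrome c, complex IV passes them to oxygen, and ATP synthase uses the proton gradient that complexes I, III and IV build. Most subunits are encoded in the nucleus and imported, while a few membrane subunits of complexes I, III, IV and V are encoded in mitochondrial DNA. Complex II is wholly nuclear and also works in the citric acid cycle.

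The values are TPM, a transcript abundance scaled for transcript length and to the same total in every library. The number of reads behind each value is unknown, since TPM does not carry it. The hairpin target APC had 15.8, 16.1 and 17.3 TPM in the shNT1 libraries and 6.59, 5.91 and 5.48 TPM in the shAPC libraries, a log2 fold change of -1.32 (SE 0.08, limma adjusted p = 6.1e-06). CTNNB1 had 144, 145 and 150 TPM with GFP and 165, 160 and 156 TPM with the CTNNB1 frame, which did not overlap but missed the threshold (log2 0.13, SE 0.04, limma adjusted p = 0.059). Whether reads of the viral CTNNB1 frame were counted is not given in the sources used here, so this value is a limited check of the overexpression. Of 10 colonic epithelial markers, 8 had a mean of at least 1 TPM, while CDX1 and CDX2 stayed under 1 TPM in every library. Of 14 markers of other cell types, only CD68 had a mean of at least 1 TPM, and CD3E, ALB and SFTPC were at 0 in all libraries. The summed TPM of those 14 markers ran from 27.7 to 28.2 with GFP and 13.8 to 15.7 with CTNNB1. It ran from 14.4 to 16.8 with shNT1 and 8.05 to 10.3 with shAPC. Most of that sum was CD68, with means of 27, 13.2, 13.8 and 7.51 TPM in those groups. VIM had higher means with CTNNB1 than with GFP (1.08 against 0.29 TPM). Its shAPC and shNT1 libraries overlapped (means 1.17 and 0.919 TPM). The part of these markers in the results below was not tested.

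Promoters of 4 called members, 2 from each arm, are shown as examples, to let their sequence be read beside their values. NDUFA4 and COX6A1 fell in the CTNNB1 arm, and SDHA and NDUFS6 fell in the shAPC arm. Many alternatives lost the call of NDUFS6, and several lost that of COX6A1. Each is the 250 bases before the transcription start that RefSeq lists on GRCh38.p14, written 5′ to 3′ on the gene's own strand. Capitals mark exact matches, on either strand, to GCGCA, any base and GCGC (the core motif of NRF1, a regulator of respiratory genes), CCGGAAG (a core bound by ETS factors such as GABPA) or CTTTGA (a core bound by TCF/LEF factors, the DNA-binding partners of beta-catenin).
NDUFA4, chr7:10940154-10940403, minus strand: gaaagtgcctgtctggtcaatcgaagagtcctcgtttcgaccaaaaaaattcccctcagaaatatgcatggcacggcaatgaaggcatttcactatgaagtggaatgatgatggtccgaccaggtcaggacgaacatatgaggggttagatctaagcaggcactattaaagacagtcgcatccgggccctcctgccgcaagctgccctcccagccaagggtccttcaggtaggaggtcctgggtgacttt
COX6A1, chr12:120437863-120438112, plus strand: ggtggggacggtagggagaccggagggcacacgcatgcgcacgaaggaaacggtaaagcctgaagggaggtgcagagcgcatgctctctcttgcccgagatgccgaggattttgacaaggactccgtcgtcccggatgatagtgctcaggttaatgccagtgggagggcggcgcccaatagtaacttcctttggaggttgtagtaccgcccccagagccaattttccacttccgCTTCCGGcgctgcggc
SDHA, chr5:218070-218319, plus strand: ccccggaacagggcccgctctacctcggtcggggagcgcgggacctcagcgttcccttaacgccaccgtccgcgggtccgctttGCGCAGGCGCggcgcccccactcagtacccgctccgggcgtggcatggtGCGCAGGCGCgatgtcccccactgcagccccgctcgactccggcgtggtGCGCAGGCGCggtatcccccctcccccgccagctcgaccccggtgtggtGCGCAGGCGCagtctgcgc
NDUFS6, chr5:1801157-1801406, plus strand: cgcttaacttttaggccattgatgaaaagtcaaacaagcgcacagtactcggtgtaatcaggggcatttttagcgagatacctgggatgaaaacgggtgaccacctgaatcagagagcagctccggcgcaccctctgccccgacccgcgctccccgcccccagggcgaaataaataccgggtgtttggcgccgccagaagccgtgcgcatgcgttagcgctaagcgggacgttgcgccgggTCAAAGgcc
The SDHA promoter held 4 matches to the NRF1 letters, COX6A1 held 1 to the ETS letters, NDUFS6 held 1 to the TCF/LEF letters and NDUFA4 held none of the 3. Shares were counted by gene, and a gene counted where any of its listed promoters matched. Across the 60 members with a listed promoter, 20% held the NRF1 letters. The share was 12.8% of 9053 genes tested in the CTNNB1 arm and 6.2% of all 27305 genes with a listed promoter. The ETS letters were in 26.7% of the members, 20.4% of those tested genes and 10.2% of all 27305 genes. For the TCF/LEF letters the shares were 6.67%, 10.5% and 13.5%. A match is a run of letters in this window, not a shown binding site.

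Most of the genes were strongly expressed. Their mean over the 12 libraries had a median of 212 TPM, and 43 of the 76 were among the 1000 highest rows of the table. The highest were COX7C (3390 TPM), a small complex IV subunit, and NDUFB9 (2230 TPM), an accessory subunit of the complex I membrane arm, followed by ATP5I (1570 TPM), COX7B (1500 TPM) and NDUFS5 (1130 TPM). The top 4 genes took 30% of the members' TPM. At the other end, 5 genes had means under 20 TPM: ATP5L2, ATP5E, ATP5S, NDUFC2 and NDUFV3. Complex IV had the highest median level (644 TPM), then complex V (313), complex II (213), complex III (146) and complex I (134). ATP5L2, a retrocopy gene of ATP5L at a mean of 0.495 TPM, was the only member below the filter of 1 TPM, so 75 members were tested in each comparison.

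**Figure D1:**
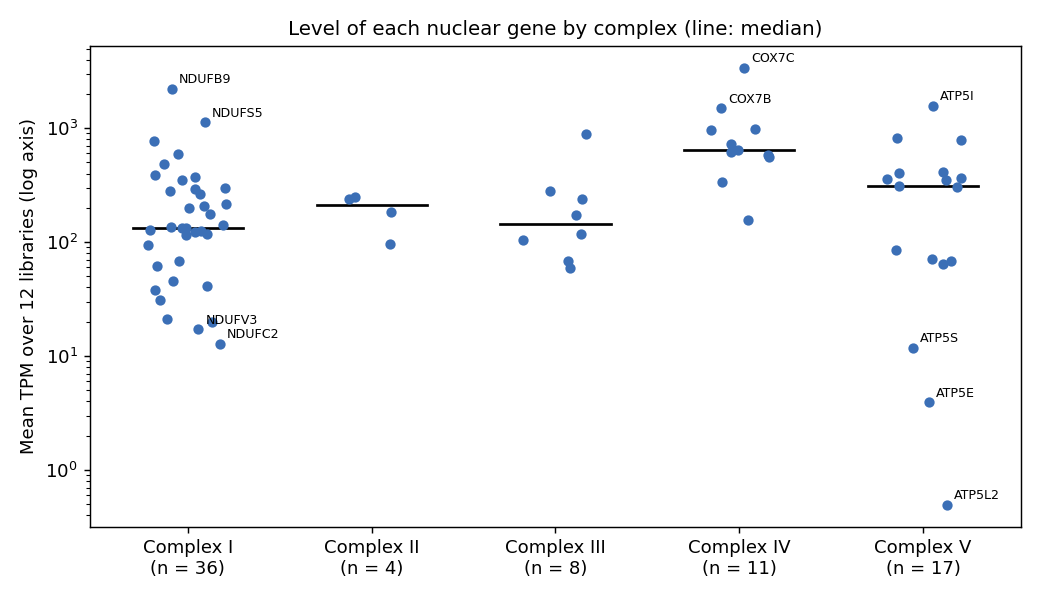
Mean TPM over the 12 libraries (log axis) for each of the 76 genes, grouped by complex, with the median of each complex as a line; genes over 1000 or under 20 TPM are named. Complex IV has the highest median and complex V the widest range, from ATP5L2 at 0.495 to ATP5I at 1570 TPM.

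Subunits of 1 complex did not have like transcript levels. In complex II, which holds 1 copy of each subunit, the means were 247 TPM for SDHA, 241 for SDHD and 96.2 for SDHC. ATP5E, the epsilon subunit of the F1 head, was listed at 3.94 TPM while ATP5B, the catalytic beta subunit of the same head, was at 819 TPM. The ATP5E values moved between 0.578 and 9.64 TPM within the shNT1 group, wider than any difference between groups. RefSeq lists 204 pseudogenes named after 48 of the 76 members, with 18 for COX6C, so reads from near-identical copies could have been shared in the authors' quantification, whose handling of them is not given in the sources used here. The members' transcripts were short, with a median length of 707.5 bases against 1724 over the tested genes, and had a like GC content (49.9% against 49.5%).

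As a sum, the 76 genes made up between 2.64% and 3.04% of all TPM. The sum was 29958, 30178 and 30008 TPM in the GFP libraries and 26363, 28342 and 29057 TPM in the CTNNB1 libraries. All 3 CTNNB1 libraries lay below all 3 GFP libraries, with a mean 27921 ± 1400 (SD, n = 3) against 30048 ± 120, a change of -7.08%. Without CTNNB1 replicate 1 the change was -4.49%, and with median-ratio scaling it was -11.7%. The corresponding sums of the other arm were 29342, 28614 and 27731 TPM with shNT1 and 27872, 30330 and 30442 TPM with shAPC. Those groups overlapped (28562 ± 810 against 29548 ± 1500, SD, n = 3, a change of 3.45%, and 1.89% to 6.39% when 1 library was left out). No p is given for these sums, and with 3 against 3 libraries an exact permutation test cannot go below 0.1.

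**Figure D2:**
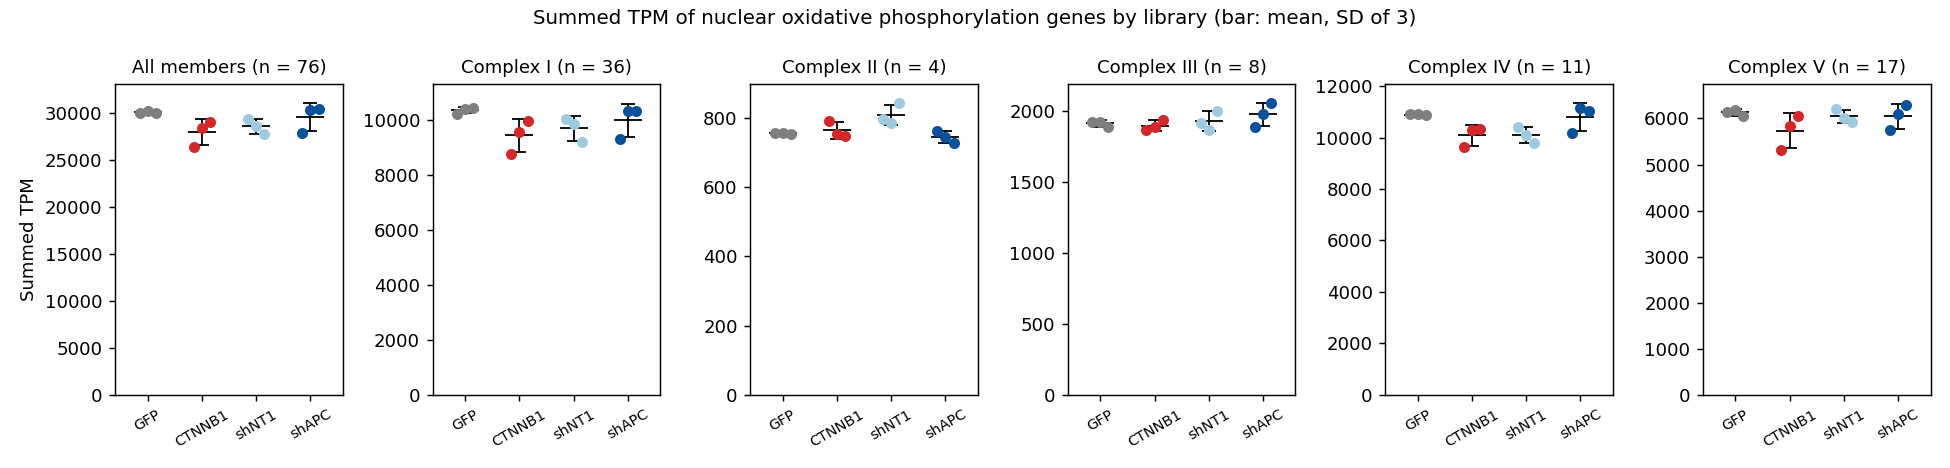
Summed TPM of all 76 genes and of each complex, by library (points), with the mean and SD of the 3 libraries of each group as bars. The CTNNB1 libraries lie below the GFP libraries for all members and for complexes I and IV, and the shAPC libraries lie below the shNT1 libraries for complex II.

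By complex, the CTNNB1 and GFP sums did not overlap for complex I (-8.84%) and complex IV (-7.47%). They overlapped for complex V (-6.4%), complex III (-0.781%) and complex II (1.15%). With shAPC only the complex II sum was without overlap, at -7.99%. The complex II sum had a mean of 809 TPM with shNT1 and 745 TPM with shAPC, and SDHA itself had 285 and 219 TPM. The spread inside the groups was not the same everywhere. The median within-group SD of a member on the log2 scale was 0.036 with GFP, 0.087 with CTNNB1, 0.075 with shNT1 and 0.079 with shAPC. Over all genes it was 0.058, 0.095, 0.081 and 0.082, and over genes of like level 0.038, 0.075, 0.06 and 0.063, so the GFP group was the tightest there too. CTNNB1 replicate 1 had the lowest value of its group for 49 of the 75 tested members, shAPC replicate 1 for 52 and shNT1 replicate 3 for 41. The like counts over all genes were not made.

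In the CTNNB1 arm, 7 of the 75 tested members changed, all of them lower with CTNNB1: NDUFA4, NDUFB9, COX6A1, NDUFS3, ATP5L, NDUFA9 and ATP5F1. That is 9.33% of the members, while 23.5% of all 11624 tested genes were called, 16.3% higher and 7.16% lower. The members' differences were small. Their log2 fold changes ran from -0.44 to 0.16 with a median of -0.07, against 0.06 over all tested genes, and 70 of 75 were within 0.2 of no change. Of the 75, 57 had a negative and 18 a positive value, against 4287 and 7337 of the 11624 tested genes. An unadjusted limma p under 0.05 was held by 19 of the 75 members and by 4322 of the 11624 genes. Groups did not overlap for 23 members, 18 lower and 5 higher, which is 30.7% against 43.2% of all genes (13% lower and 30.2% higher). In bulk RNA, fewer cells expressing a gene and less RNA per cell cannot be told apart.

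NDUFA4 had the largest fall. It had 195, 178 and 170 TPM in the GFP libraries and 124, 135 and 140 TPM in the CTNNB1 libraries. Every CTNNB1 library was below every GFP library, with a log2 fold change of -0.44 (SE 0.06, limma adjusted p = 0.0012). COX6A1, the isoform of complex IV subunit 6A found in most tissues, had 1010, 1040 and 1020 TPM with GFP and 771, 919 and 931 TPM with CTNNB1. Its groups also lay apart, CTNNB1 replicate 1 being the lowest (log2 -0.23, SE 0.07, limma adjusted p = 0.033). The complex IV subunits moved to one side: all 11 had a negative log2 fold change, with a median of -0.14, and 2 of the 11 passed the threshold. The uncalled ones included COX7B (log2 -0.14, limma adjusted p = 0.067), COX6C (-0.14, adjusted p = 0.069) and COX7C (-0.04, adjusted p = 0.44). All 11 were also negative under median-ratio scaling and under removal of GC or length trends.

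Complex I held 3 of the 7 calls. NDUFB9 had 2610, 2690 and 2600 TPM with GFP and 1800, 2090 and 2210 TPM with CTNNB1. The groups did not overlap and differed by a log2 fold change of -0.38 (SE 0.07, limma adjusted p = 0.0034), and since NDUFB9 is the second most abundant member it also weighed on the sum, whose change was -5.58% without it. NDUFS3, a core subunit of the arm that carries electrons to ubiquinone, had 195, 182 and 190 TPM with GFP and 151, 168 and 177 TPM with CTNNB1 (log2 -0.19, SE 0.06, limma adjusted p = 0.047). NDUFA9, an accessory subunit beside the ubiquinone site, was the tightest of the 3: 215, 216 and 217 TPM with GFP and 196, 199 and 193 TPM with CTNNB1 (log2 -0.14, SE 0.04, limma adjusted p = 0.031). NDUFS3 was the only call among the 7 core subunits, whose median log2 fold change was 0.01, and the 29 accessory subunits held 2 calls at a median of -0.07.

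Complex V held the remaining 2 calls, both in its membrane part and stalk. ATP5L (current symbol ATP5MG), subunit g of the membrane part, had 379, 374 and 366 TPM with GFP and 313, 336 and 353 TPM with CTNNB1 (log2 -0.16, SE 0.05, limma adjusted p = 0.046). ATP5F1 (ATP5PB), subunit b of the peripheral stalk, had 317, 322 and 310 TPM with GFP and 290, 285 and 288 TPM with CTNNB1 (log2 -0.14, SE 0.04, limma adjusted p = 0.032). Neither gene's groups overlapped. The 5 F1 head subunits held no call and had log2 fold changes from -0.13 to 0. ATP5G1, a gene for the rotating c subunit, had a larger value of -0.29 but its groups overlapped (limma adjusted p = 0.074). Complexes II and III held no call among 4 and 8 genes. Their most positive values were SDHA (log2 0.15, limma adjusted p = 0.077) and UQCRC2 (0.16, adjusted p = 0.096), and neither gene's groups overlapped.

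How many members were called depended on single libraries. Without GFP replicate 1, 2 or 3 the count was 2 each time (2.67%), NDUFA4 and NDUFB9, while the share of all genes called also fell, to 13.9%, 12.9% and 14.6%. It was 11 without CTNNB1 replicate 1 (14.7%, against 27.5% of all genes), 3 without replicate 2 (4% against 15.2%) and 17 without replicate 3 (22.7% against 25.4%). Without CTNNB1 replicate 1 the members' median was also nearer 0, at -0.02. Median-ratio scaling, which moved the median of all genes from 0.06 to -0.01, gave 16 calls, all lower, or 21.3% of the members against 23.5% of all genes. With the GC trend removed there were 15 calls, or 20% against 32.7%. The distance between the members' share and that of all genes was therefore not the same under each setting. NDUFA4 and NDUFB9 were called under every alternative tried.

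**Figure D3:**
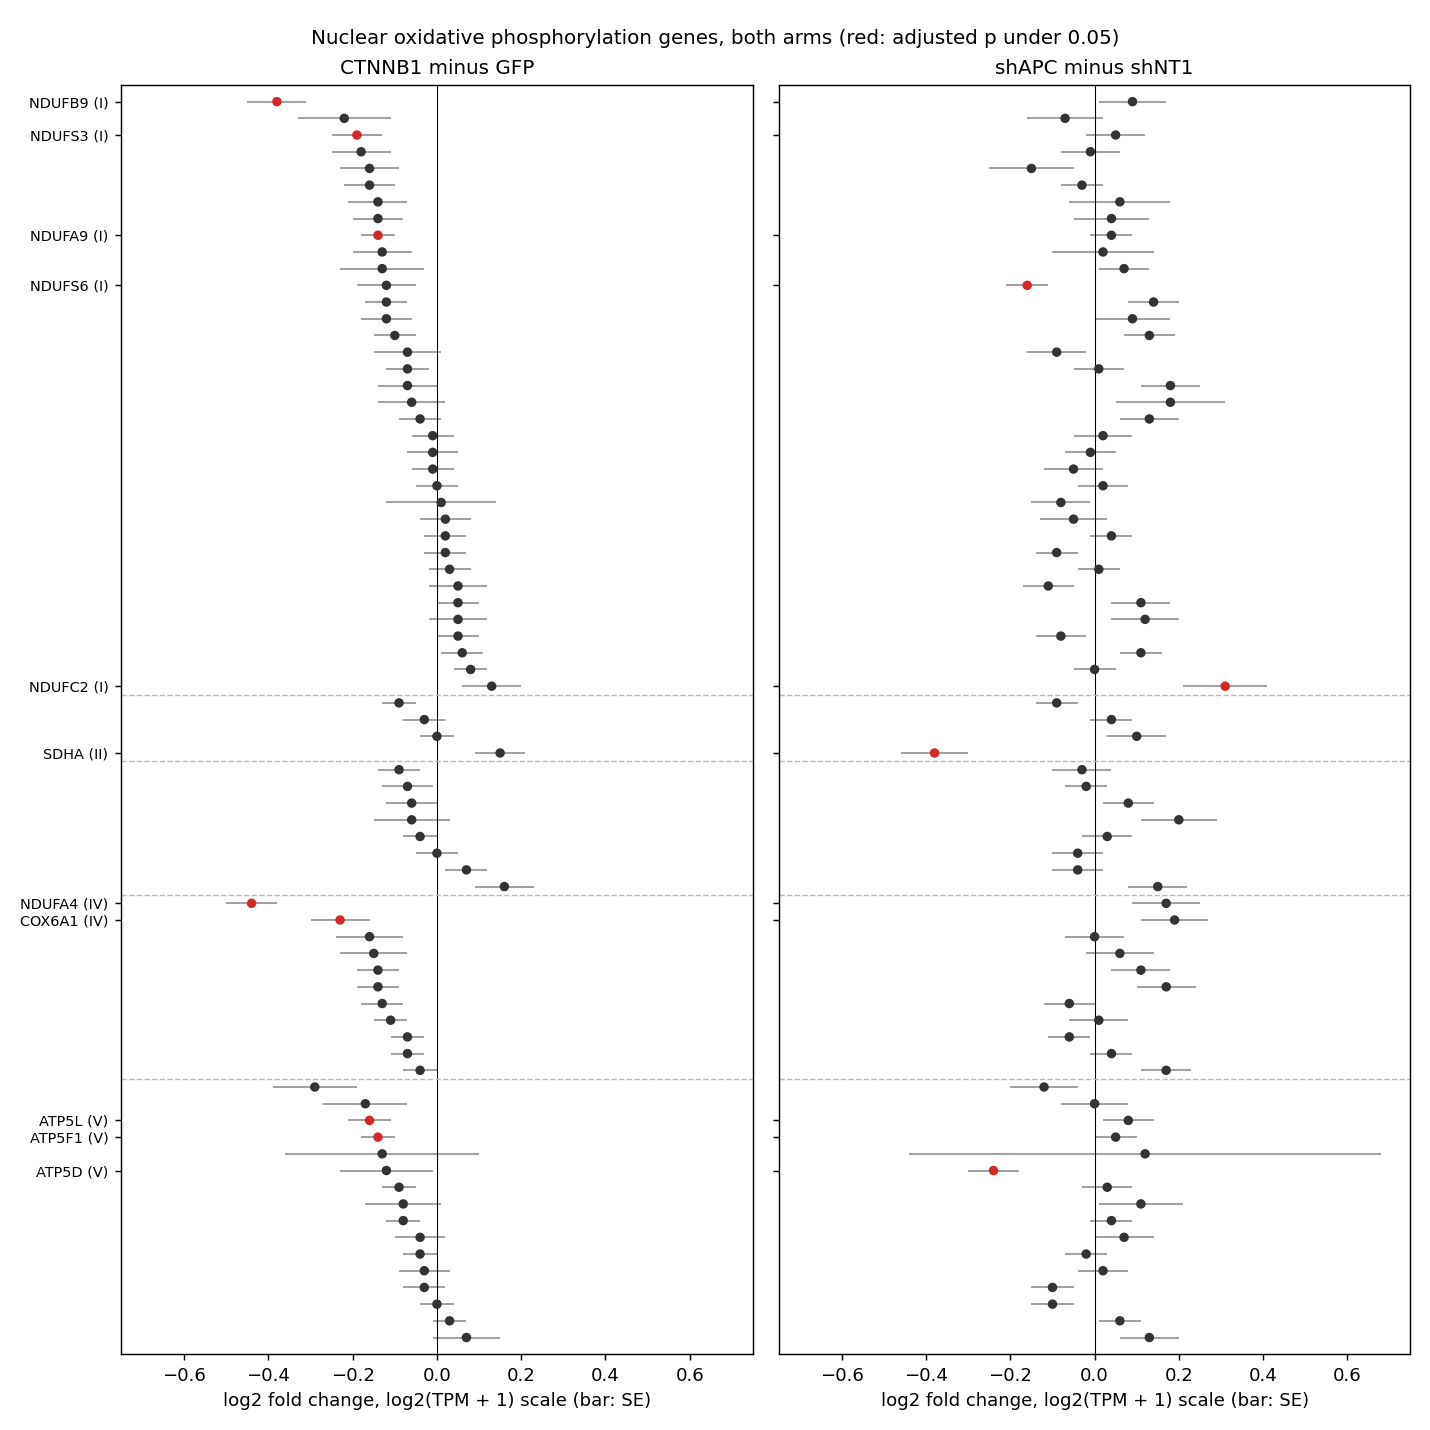
Log2 fold change with SE of the 75 tested genes in the CTNNB1 arm (left) and the shAPC arm (right), ordered by complex and by the CTNNB1 value, with called genes in red and the genes called in either arm named. All 11 complex IV genes lie left of 0 in the CTNNB1 arm, and SDHA is the lowest gene of the shAPC arm at -0.38.

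In the shAPC arm, 4 of 75 members changed. SDHA, ATP5D and NDUFS6 were lower with shAPC and NDUFC2 was higher. That is 5.33%, against 22.1% of all 11834 tested genes (7.24% higher, 14.9% lower). The members' log2 fold changes ran from -0.38 to 0.31 with a median of 0.03, against -0.04 over all genes. Positive values were held by 48 members and negative ones by 27, against 4699 and 7135 of the 11834 tested genes. With the length trend removed, 39 members were positive and 36 negative. An unadjusted limma p under 0.05 was held by 11 of the 75 members and by 4286 of the 11834 genes. The groups did not overlap for 13 members, 7 lower and 6 higher, or 17.3% against 40.9% of all genes (26.4% lower and 14.5% higher).

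SDHA encodes the flavoprotein of complex II, which oxidises succinate to fumarate. It had 270, 269 and 317 TPM in the shNT1 libraries and 238, 219 and 200 TPM in the shAPC libraries. All 3 shAPC values were below all 3 shNT1 values, with a log2 fold change of -0.38 (SE 0.08, limma adjusted p = 0.0082), the largest of any member in this arm. The other subunits of the complex did not pass: SDHB, the iron-sulfur subunit, had a log2 fold change of -0.09 (limma adjusted p = 0.19), and the membrane anchors SDHC and SDHD had 0.1 (adjusted p = 0.34) and 0.04 (adjusted p = 0.59). SDHA has close copies elsewhere in the genome, and the table lists SDHAP1 at 4.29 to 7.19 TPM and SDHAP3 at 5 to 8.87 TPM over the libraries, far below SDHA itself. SDHAP2 was at 0.467 to 0.96 TPM, under the filter, and its shAPC libraries lay below its shNT1 libraries. In the shAPC arm SDHAP1 had a log2 fold change of -0.24 (limma adjusted p = 0.2) and SDHAP3 0.12 (adjusted p = 0.6). Whether reads are shared between SDHA and these copies was not tested.

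ATP5D (ATP5F1D), the delta subunit of the central stalk, had 67.2, 66.5 and 73.6 TPM with shNT1 and 57.2, 59.1 and 58.8 TPM with shAPC (log2 -0.24, SE 0.06, limma adjusted p = 0.014). NDUFS6, a zinc-binding accessory subunit of complex I, had 613, 620 and 587 TPM with shNT1 and 523, 543 and 564 TPM with shAPC (log2 -0.16, SE 0.05, limma adjusted p = 0.047). Both genes' groups lay apart, by less than in SDHA on the log2 scale. NDUFC2, a membrane arm subunit of complex I, went the other way, with 13.2, 12.6 and 10.5 TPM in shNT1 and 13.7, 16.3 and 15.7 TPM in shAPC (log2 0.31, SE 0.10, limma adjusted p = 0.04). The highest shNT1 and the lowest shAPC value of NDUFC2 were close together. Without the filter on low values, the limma adjusted p was 0.075 for NDUFS6 and 0.12 for NDUFC2, and both calls were also lost with median-ratio scaling (0.19 and 0.052), with no variance trend (0.098 and 0.063) and with a replicate block (0.11 and 0.064). Complexes III and IV held no call.

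Single libraries moved this count too. It was 7 without shAPC replicate 1 (9.33%, against 18% of all genes) and 2 without shAPC replicate 2 or 3 (2.67%, against 13.9% and 12.6%). Leaving out a shNT1 library gave 3 to 5 (4% to 6.67%, against 16.3% to 19% of all genes). SDHA and ATP5D kept their calls in each of these 6 fits. Only SDHA was called under every alternative tried in this arm.

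**Figure D4:**
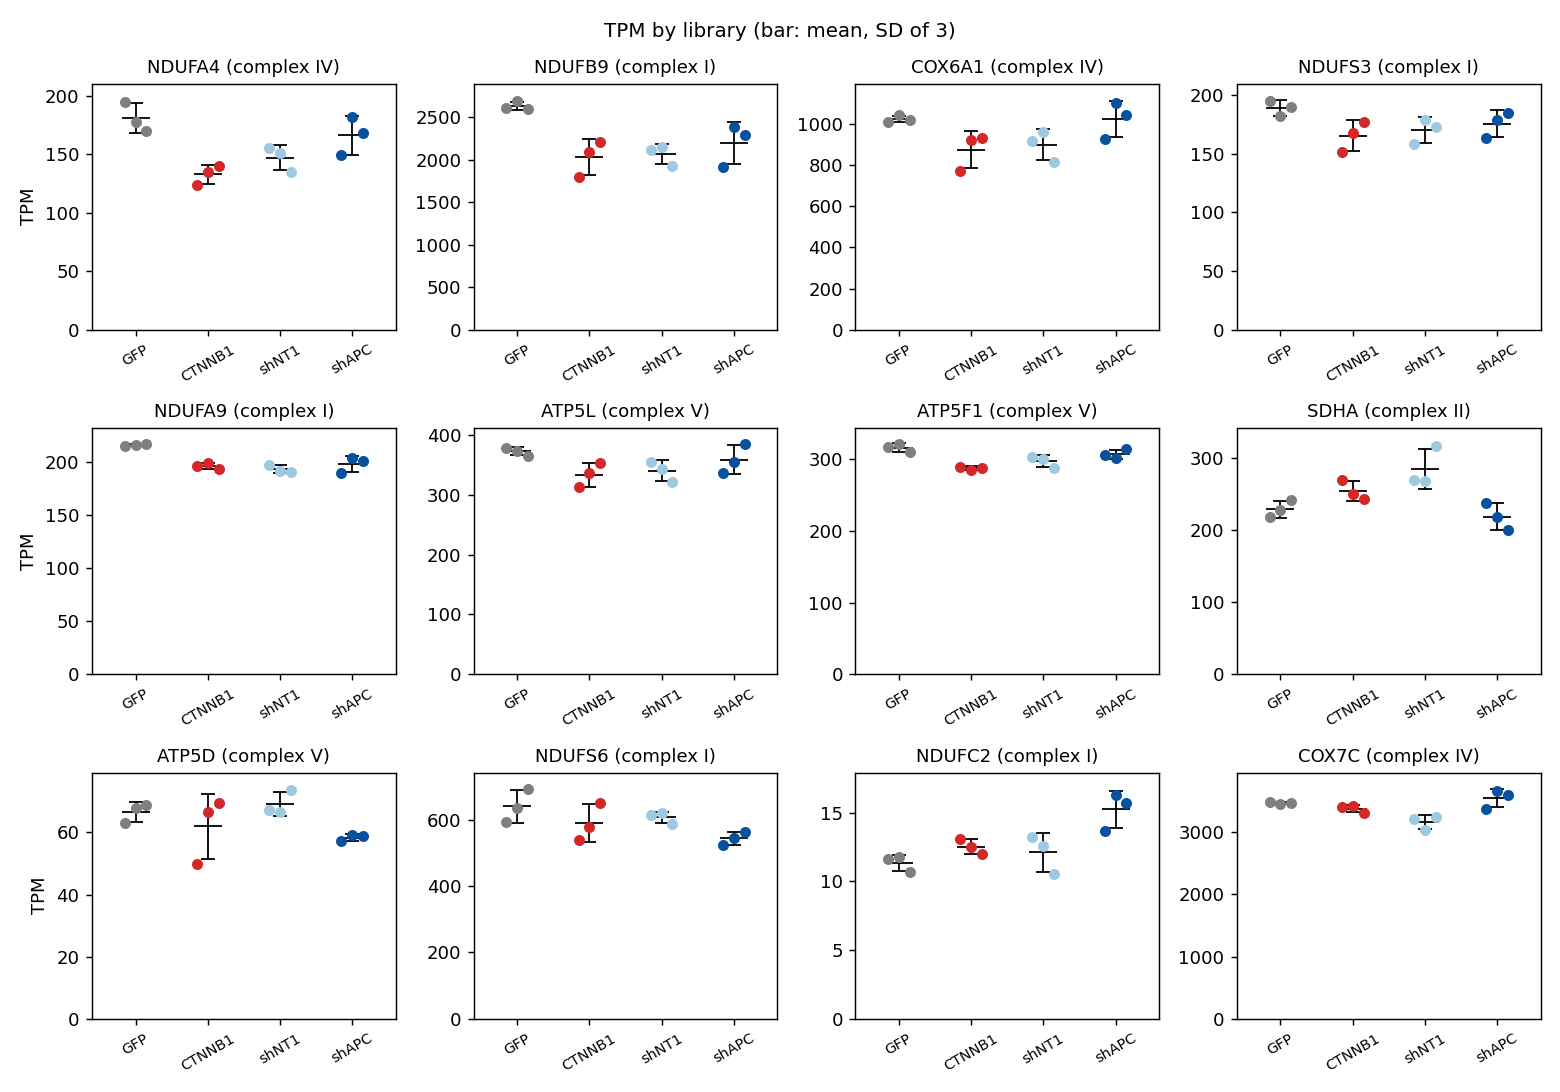
TPM by library (points) for the 11 genes called in either arm and COX7C, with the mean and SD of 3 libraries per group as bars, each vertical axis starting at 0. NDUFA4 and NDUFB9 are lower with CTNNB1 than with GFP, and SDHA is lower with shAPC than with shNT1.

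The arms did not move the members alike. No member was called in both arms, against 964 of the 11556 genes tested in both (8.34%). Over the 75 members the log2 fold changes of the arms correlated at -0.09 (Pearson) and -0.06 (Spearman), against 0.51 and 0.38 over those 11556 genes. These are descriptions across genes, which are not independent and share the libraries of each arm. A negative value in the CTNNB1 arm with a positive one in the shAPC arm was the commonest pattern, with 38 members. Over the 11556 genes 1142 had that pattern, and the opposite one was the commonest, with 3932. The shAPC signs of the members moved with the length trend, as given above. The CTNNB1 group had the lowest mean of the 4 groups for 38 members and the highest for 4. The highest mean was with shAPC for 31 members and with GFP for 27. This order was not counted over all genes. Levels of GFP and shNT1 libraries differ by vector and time, so this order is a description.

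The difference between the arms was tested directly in 1 fit of all 12 libraries, as the CTNNB1 effect minus the shAPC effect. It passed for 8 of the 75 members, 7 negative and 1 positive. That is 10.7%, against 16.1% of all 11741 tested genes, 13.3% positive and 2.76% negative. The members' median difference was -0.1 and that of all genes was 0.11. Complex IV held 4 of the 7 negative ones: NDUFA4 (log2 difference -0.61, SE 0.11, limma adjusted p = 0.0027), COX6A1 (-0.42, SE 0.11, adjusted p = 0.024), COX6C (-0.31, SE 0.09, adjusted p = 0.033) and COX7C (-0.21, SE 0.06, adjusted p = 0.04). The rest were NDUFB9 (-0.47, SE 0.12, limma adjusted p = 0.018) and NDUFB5 (-0.26, SE 0.07, adjusted p = 0.027) of complex I, and ATP5F1 (-0.18, SE 0.06, adjusted p = 0.039) of complex V. SDHA was the positive one (0.53, SE 0.11, limma adjusted p = 0.0051).

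Of these 8 genes, 3 were called in neither arm alone. COX7C, the most abundant member, had 3490, 3460 and 3470 TPM with GFP, 3400, 3420 and 3310 with CTNNB1, 3210, 3040 and 3250 with shNT1, and 3380, 3670 and 3600 with shAPC. Its libraries were apart in both arms, lower with CTNNB1 and higher with shAPC than in the control. NDUFB5 had 218, 203 and 200 TPM with GFP, 194, 185 and 192 with CTNNB1, 204, 194 and 207 with shNT1, and 209, 226 and 234 with shAPC, with the same pattern. COX6C had 372, 340 and 342 TPM with GFP, 332, 313 and 311 with CTNNB1, 342, 316 and 315 with shNT1, and 328, 385 and 386 with shAPC, and its shAPC arm overlapped.

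In complex IV all 11 differences were negative, with a median of -0.21, and 4 passed. Within the shAPC arm 9 of the 11 complex IV values were positive with a median of 0.06 and none passed (3 had an unadjusted p under 0.05). With the length trend removed, 10 of the 11 differences were negative, and 7 of the 11 shAPC values were positive. The count of 8 fell to 4 without GFP replicate 1, to 3 without GFP replicate 2, to 4 without CTNNB1 replicate 2, to 4 without shNT1 replicate 2, to 5 without shNT1 replicate 3, to 3 without shAPC replicate 2 and to 2 without shAPC replicate 3. The share of all genes called fell in these fits as well, from 16.1% to between 8.46% and 13.2%. NDUFA4 and SDHA kept their calls in every one of these fits. The arms differ in vector, inducer and time, which cannot be told apart from the gene perturbed.

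The authors' deposited table for the CTNNB1 comparison gave 10 of the 76 members an adjusted p under 0.05, all lower. Of its 28008 rows, 2638 passed in either direction (9.42%), a smaller share than that of the members. Both deposited tables have more rows than were tested here and list ATP5L2, which was below the filter. Their shares therefore have another base than those of the fits here, where 9.33% of members and 23.5% of 11624 genes were called in this arm. NDUFA4, NDUFB9, NDUFA9 and ATP5F1 were in both sets, and COX6A1, NDUFS3 and ATP5L were called here only. In that deposited table the log2 fold change was -0.52 for NDUFA4 (adjusted p = 0.017) and -0.45 for NDUFB9 (adjusted p = 0.038), while COX6A1 had -0.31 (adjusted p = 0.13). The authors' deposited table for the shAPC comparison gave 1 member, SDHA, with -0.34 (adjusted p = 0.032), against 9.01% of its rows, and ATP5D had -0.21 (adjusted p = 0.053).

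Assembly factors, the proteins that build the complexes but do not stay in them, changed in the CTNNB1 arm for 10 of 50 genes, 3 higher and 7 lower. That is 20% against 23.5% of all genes, with both directions counted. Of all genes, 16.3% were called higher and 7.16% lower, while the assembly factors held more lower than higher calls. With shAPC 4 changed, 1 higher and 3 lower, or 8% against 22.1%. TTC19, a complex III assembly factor, was higher in both arms, from 17.2, 16.7 and 17.1 TPM with GFP to 22.7, 22.5 and 21 with CTNNB1 (log2 0.36, SE 0.06, limma adjusted p = 0.0022), with a log2 fold change of 0.2 in the shAPC arm (limma adjusted p = 0.04). COX17, the copper chaperone of complex IV, was lower in both, from 777, 720 and 706 TPM to 603, 577 and 635 with CTNNB1 (log2 -0.28, SE 0.05, limma adjusted p = 0.0044) and a log2 fold change of -0.24 with shAPC (limma adjusted p = 0.037). NDUFAF2, a complex I assembly factor, was lower in both arms as well (-0.16, limma adjusted p = 0.045, and -0.25, adjusted p = 0.017). In the CTNNB1 arm ATPAF1 (0.23, limma adjusted p = 0.011) and COX18 (0.24, adjusted p = 0.025) were higher, and COA6 (-0.27, adjusted p = 0.0055) and SDHAF1 (-0.27, adjusted p = 0.02) were lower. None of the 50 passed the test of the difference between the arms, by limma, against 16.1% of all genes. In that test 4 of the 50 had an unadjusted p under 0.05, against 3743 of all 11741 tested genes.

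Among subunits and relatives outside the naming rule, 1 of 8 tested genes was lower in the CTNNB1 arm and 1 of 7 was higher in the shAPC arm. These are 12.5% against 23.5% of all genes and 14.3% against 22.1%. NDUFAB1, the acyl carrier protein that is also a complex I subunit, had 579, 561 and 530 TPM with GFP and 484, 467 and 453 with CTNNB1 (log2 -0.25, SE 0.05, limma adjusted p = 0.0048). COX7A2L, which joins complexes III and IV, was higher with shAPC by 0.16 (SE 0.05, limma adjusted p = 0.039). ATPIF1, the inhibitor of ATP synthase, passed in neither arm (log2 -0.04, limma adjusted p = 0.63 with CTNNB1; -0.16, adjusted p = 0.055 with shAPC).

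Of 30 genes for upkeep and expression of mitochondrial DNA, 1 was higher and 1 lower in the CTNNB1 arm, and 5 were lower in the shAPC arm. These are 6.67% against 23.5% of all genes and 16.7% against 22.1%, of which 14.9% lower. TFAM, which packages and transcribes mitochondrial DNA, had 85.4, 85.4 and 80.9 TPM with GFP and 119, 98.9 and 93.9 with CTNNB1. The groups lay apart and CTNNB1 replicate 1 was the highest (log2 0.30, SE 0.08, limma adjusted p = 0.024), while the shAPC value was 0.03 (adjusted p = 0.76). That call did not hold with no filter (limma adjusted p = 0.075), no variance trend (0.052) or median-ratio scaling (0.051), nor without GFP replicate 1, 2 or 3 (0.062, 0.063 and 0.092). HSD17B10, a subunit of mitochondrial RNase P, was the lower one (-0.17, limma adjusted p = 0.049). With shAPC the RNA-binding proteins TBRG4 (-0.32, limma adjusted p = 0.015) and GRSF1 (-0.26, adjusted p = 0.0047) and the polymerase subunit POLG2 (-0.28, adjusted p = 0.026) were among the lower. POLRMT, the mitochondrial RNA polymerase, passed in neither arm.

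Of 10 tested transcriptional regulators of these genes, ESRRA was the only one lower in the CTNNB1 arm (-0.26, SE 0.07, limma adjusted p = 0.018), and 6 were lower in the shAPC arm, or 10% against 23.5% and 60% against 22.1% of all genes. Among those 6 were YY1 (-0.28, limma adjusted p = 0.028), PPRC1 (-0.22, adjusted p = 0.025), ESRRA (-0.19, adjusted p = 0.034) and MYC (-0.19, adjusted p = 0.041). NRF1 passed in neither arm, and PPARGC1A, the inducible coactivator of mitochondrial genes, was at most 0.277 TPM and fell below the filter. Of 24 genes of the citric acid cycle and pyruvate entry, 1 was higher and 1 lower in the CTNNB1 arm: SUCLG2 (0.27, limma adjusted p = 0.0091) and SUCLG1 (-0.18, adjusted p = 0.015), subunits of succinyl-CoA ligase. That is 8.33% against 23.5% of all genes, and with shAPC 4 of the 24 were called, or 16.7% against 22.1%. With shAPC, PDK2, a kinase that inhibits pyruvate dehydrogenase, was higher (0.30, limma adjusted p = 0.032). IDH2 (-0.28, limma adjusted p = 0.006), the pyruvate carrier subunit MPC2 (-0.25, adjusted p = 0.016) and IDH3A (-0.19, adjusted p = 0.044) were lower. Of the genes named from these lists, the CTNNB1 calls of TTC19, COX17, COA6, NDUFAB1 and SUCLG2 and the shAPC calls of GRSF1 and IDH2 held in every refit at the same threshold, and each of the others was lost in at least 1.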

How the data were processed

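mRNA-seq libraries of 12 HT-29 samples were used, 3 per group. The authors deposited TPM per gene, aligned with STAR 2.7.3a to hg38, per the submitters' processing notes; the quantification tool, annotation and strandedness are not given in the sources used here. The authors also deposited limma tables whose log2 fold changes, p-values and adjusted p-values are printed only where named as theirs, and whose log-odds score, per the file headers, was not used. Each TPM column summed to the same total, and depth is unknown.

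TPM was fitted as log2(TPM + 1) with limma 3.58.1 in R 4.3.3, per arm, on genes with a mean of at least 1 TPM, with a variance trend. A gene was called at a Benjamini-Hochberg adjusted p under 0.05 over all genes tested. Adding 1 understates the change of low genes. The labels do not say that libraries came from separate cultures, so p-values measure only the spread between these libraries. No mitochondrially encoded gene was fitted, as no row matched.

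The members and lists were chosen with earlier results of these data known. Genes were named by rule: complex II, NDUFA4 and ATPIF1, the 5 largest called changes per direction and comparison, the largest call per complex and direction, up to 3 calls per list and direction at a mean of at least 5 TPM, and TFAM, POLRMT, NRF1 and PPARGC1A. NDUFA9, ATP5F1 and COX7C, and the uncalled genes named beside them, were added after their values were seen. ATP5 genes keep the older symbols of the table. On simulated data with 200 changed genes the CTNNB1 fit recovered 91% at 1.5-fold and 30% at 1.2-fold among 11624 genes, and the shAPC fit 92% and 23.5% among 11834. The contrast recovered 76.5% and 0% among 11741. The fits of the data called 2730, 2615 and 1885 genes, many more than the 200 changed there, so recovery in the data may differ. The alternatives were a pseudocount of 0.1, no filter or a minimum of 5 TPM, median-ratio scaling, no variance trend, a replicate block, removal of length or GC trends, 1 fit of all libraries, a stricter call (adjusted p under 0.01), and fits without each library in turn. Results of some single members are not reported here.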

Additional observations from a re-analysis of the deposited data

Results flagged for a closer look

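For 8 members the CTNNB1 effect differed from the shAPC effect by a test of the difference itself (limma, Benjamini-Hochberg over 11741 genes). That is 10.7% of the 75 tested members against 16.1% of all tested genes, with both directions counted. The directions differed: 7 members were called negative and 1 positive, while 2.76% of all tested genes were called negative and 13.3% positive. The log2 difference was -0.61 for NDUFA4, -0.47 for NDUFB9, -0.42 for COX6A1, -0.31 for COX6C, -0.26 for NDUFB5, -0.21 for COX7C and -0.18 for ATP5F1. It was 0.53 for SDHA, the only one with a positive value. NDUFA4, NDUFB9, COX6A1 and ATP5F1 had been called in the CTNNB1 arm and SDHA in the shAPC arm, while COX6C, NDUFB5 and COX7C had been called in neither.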

How the results depend on the processing

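Counts of called members moved with the settings, while no value of a named gene that had been called changed sign. In the CTNNB1 arm the 7 calls (9.33%, all genes 23.5%) became 2 at an adjusted p under 0.01 (all genes 10.8%), 4 with no filter (12.6%), 2 with no variance trend (20.8%), 16 with median-ratio scaling (23.5%) and 15 with the GC trend removed (32.7%). The 4 calls of the shAPC arm became 1, 2 and 2 at an adjusted p under 0.01, with no filter and with no variance trend (all genes 9.73%, 10.7% and 18.6%). For the difference the 8 became 2, 5 and 4 under those 3 settings (all genes 5.35%, 7.54% and 13.4%). Leaving out 1 library gave 2 to 17 calls in the CTNNB1 arm, 2 to 7 in the shAPC arm and 2 to 12 for the difference. The share of all genes called in those fits ran from 12.9% to 27.5%, 12.6% to 19% and 8.46% to 18.3%. The cause was not tested. The summed TPM of the members in the CTNNB1 arm changed by -11.7% after median-ratio scaling. That scaling also moved the median of all genes from 0.11 to 0 in the difference, and turned the calls over all genes in the CTNNB1 arm from 1898 higher and 832 lower to 1239 and 1490. Under it the members' medians were -0.22 in the difference, -0.15 in the CTNNB1 arm and 0.07 in the shAPC arm.

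Replicate numbers are shared by the groups, and the labels do not say what they stand for. Same-numbered libraries had correlations of deviations of 0.216, 0.07 and 0.115 in the CTNNB1 arm and -0.146, -0.006 and -0.206 in the shAPC arm, so the numbers were not taken as pairs. With the replicate block the calls were 12 in the CTNNB1 arm (11 lower, 1 higher), 2 in the shAPC arm and 6 for the difference, with 24.9%, 14.9% and 14.9% of all genes called.

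Depth is unknown, and most simulated 1.2-fold changes were missed. The simulation changed far fewer genes than the fits of the data called, so the share missed in the data is not known from it. The planned fit with mitochondrial genes removed was not run, as none matched.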

Other observations

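Other groups of abundant housekeeping genes gave values to set beside these, where 23.5% of all genes were called in the CTNNB1 arm and 22.1% in the shAPC arm. Of 77 tested mitochondrial ribosomal protein genes, 8 were called in the CTNNB1 arm (1 higher, 7 lower, median log2 -0.06) and 6 in the shAPC arm (1 higher, 5 lower, median -0.04). Of 81 cytosolic ribosomal protein genes, 2 were called in the CTNNB1 arm (1 higher, 1 lower) and 28 in the shAPC arm (27 higher, 1 lower, median 0.18). Of 35 proteasome subunit genes, 31 were lower in the CTNNB1 arm, with a median log2 fold change of -0.49, and 6 were lower in the shAPC arm, with a median of -0.06. None of these lists was tested as a set.

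TATDN1, the gene listed beside NDUFB9 in RefSeq, was looked at after the NDUFB9 values were seen. It had 363, 358 and 359 TPM with GFP and 286, 290 and 285 TPM with CTNNB1 (log2 -0.33, SE 0.04, limma adjusted p = 0.00032). With the hairpins it had 295, 292 and 278 TPM with shNT1 and 305, 310 and 327 TPM with shAPC (log2 0.12, SE 0.05, limma adjusted p = 0.11). Whether reads are shared between the neighbours was not tested.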
